A study of Mus musculus with 11 samples.

Results

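The voltage-gated and potassium channel genes of cultured mouse hippocampal neural stem cells (NSCs) were taken as the protein-coding genes whose symbols begin with Scn and a digit, Kcn, Hcn and a digit, Cacna1, Cacna2d, or Cacnb and a digit. The epithelial sodium channel genes (Scnn1) begin differently and were left out. The rule found 130 genes in the GENCODE mouse annotation, and all 130 were among the 53801 genes of the tables. They comprised 14 sodium channel genes, 18 calcium channel genes, 4 HCN genes and 94 potassium channel genes.

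The 11 libraries were made from primary NSCs of the embryonic mouse hippocampus, a mixed culture in which no single cell type was sorted. Every culture received either 4HBP at 1 µM or its ethanol vehicle (EtOH) for 7 days. The sample labels expand 4HBP as 4-hydroxybenzoic acid, whereas the study's methods give 4-hydroxybenzophenone, and the name 4HBP is used here for whichever was applied. Proliferation medium contained EGF, bFGF and B27, with 3 EtOH and 3 4HBP libraries, and differentiation medium lacked the growth factors and held more B27, with 2 EtOH and 3 4HBP libraries. The labels do not say whether libraries of a group came from separate animals or cultures, so the p-values below measure only the spread between these samples, which may be technical.

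Voltage-gated channels open when the membrane potential changes. Sodium channel alpha subunits (Scn) carry the upstroke of the action potential and are modified by beta subunits, while calcium channel alpha1 subunits (Cacna1) couple voltage to calcium entry and are trafficked by alpha2delta (Cacna2d) and beta (Cacnb) subunits. HCN channels open on hyperpolarisation and set pacemaker currents. Potassium channels repolarise the membrane or hold it at rest, and comprise voltage-gated (Kv), calcium- and sodium-activated, tandem-pore (K2P, the leak channels) and inwardly rectifying (Kir) families. In brain, neurons carry most of the sodium, calcium and Kv channels, whereas Kir and K2P channels of astrocytes clear extracellular potassium.

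Library totals ran from 20840839 to 21129722 expected counts with growth factors present and from 20822921 to 23438463 without them, so that 3 counts corresponded to 0.128 to 0.144 CPM (a gene's counts relative to its library's total, scaled to 1000000). The third 4HBP library of proliferation medium stood apart from the others of its group (chi-square per gene 25.6 and 23.0 against them, and 5.62 between the other two). Some results named here are also given without it, and values given only with it can depend on it. Neural stem cell markers summed to 4386 to 5092 TPM (transcripts scaled by length to a fixed total) in proliferation medium and to 2559 to 2680 TPM in differentiation medium, with none of the 10 at 0 in any group. In EtOH cultures 2 of the 10 were higher in differentiation medium and 8 lower, all 10 cell cycle markers were lower, and of 4 mural markers tested 2 were higher and 2 lower. Astrocyte markers (10 genes) summed to 4117 to 4786 TPM in EtOH cultures in proliferation medium and to 7881 to 8031 TPM in differentiation medium, with 7 of 10 higher and 3 lower. Oligodendrocyte lineage markers (10 genes) summed to 2446 to 3042 and 7660 to 8138 TPM, with 7 higher and 0 lower. The 12 neuron markers summed to 540 to 682 TPM over all proliferation-medium libraries and to 610 to 660 TPM over all differentiation-medium libraries, with 5 higher and 2 lower in EtOH cultures. Microglial markers summed to at most 2.82 TPM and endothelial markers to at most 1.01 TPM in every library, with Cldn5 and Cdh5 at 0 throughout. The part of these markers in the channel results was not tested, and in bulk samples fewer cells of a type and less RNA per cell cannot be told apart.

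Most channel genes were detected, and potassium channels made up most of the channel RNA. Of the 130 genes, 121 had a count above 0 in at least 1 library, 86 in all 11, and 64 reached a mean of 1 TPM in at least 1 group. Cacna1f, Kcna7, Kcnj1, Kcnk15, Kcnk16, Kcnk18, Kcnmb1, Kcnv2 and Scn10a were at 0 in every library, and 24 genes, these included, never exceeded 3 counts. The channel genes together summed to 654 to 711 TPM in proliferation medium and to 1193 to 1251 TPM in differentiation medium. A gain in TPM is not by itself a gain in counts: folds between media in TPM were a median of 1.25 times those in CPM in EtOH cultures and 1.24 times in 4HBP cultures, since TPM divides by transcript length and rescales each library.

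Potassium channels held 561 ± 13.8 TPM (SD, n = 3) in EtOH cultures in proliferation medium and 988 ± 8.88 TPM (n = 2) in differentiation medium, 81.0% and 82.7% of all channel TPM. Calcium channels held 70.7 ± 2.04 and 110 ± 6.24 TPM, and sodium channels 58.7 ± 8.66 and 67.9 ± 3.66 TPM. The HCN genes had the smallest total, 2.83 ± 0.603 TPM in proliferation medium and 28.3 ± 0.106 TPM in differentiation medium. Within the potassium channels, the Kir class summed to 146 ± 4.12 and 365 ± 11.8 TPM, the K2P class to 37.9 ± 3.64 and 212 ± 9.36 TPM, and the calcium- and sodium-activated class to 44.6 ± 3.80 and 94.6 ± 4.31 TPM. Summed Kv pore subunits moved less, from 180 ± 4.14 to 204 ± 2.98 TPM, and Kv auxiliary subunits summed to 151 ± 16.3 and 110 ± 1.22 TPM.

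**Figure D1:**
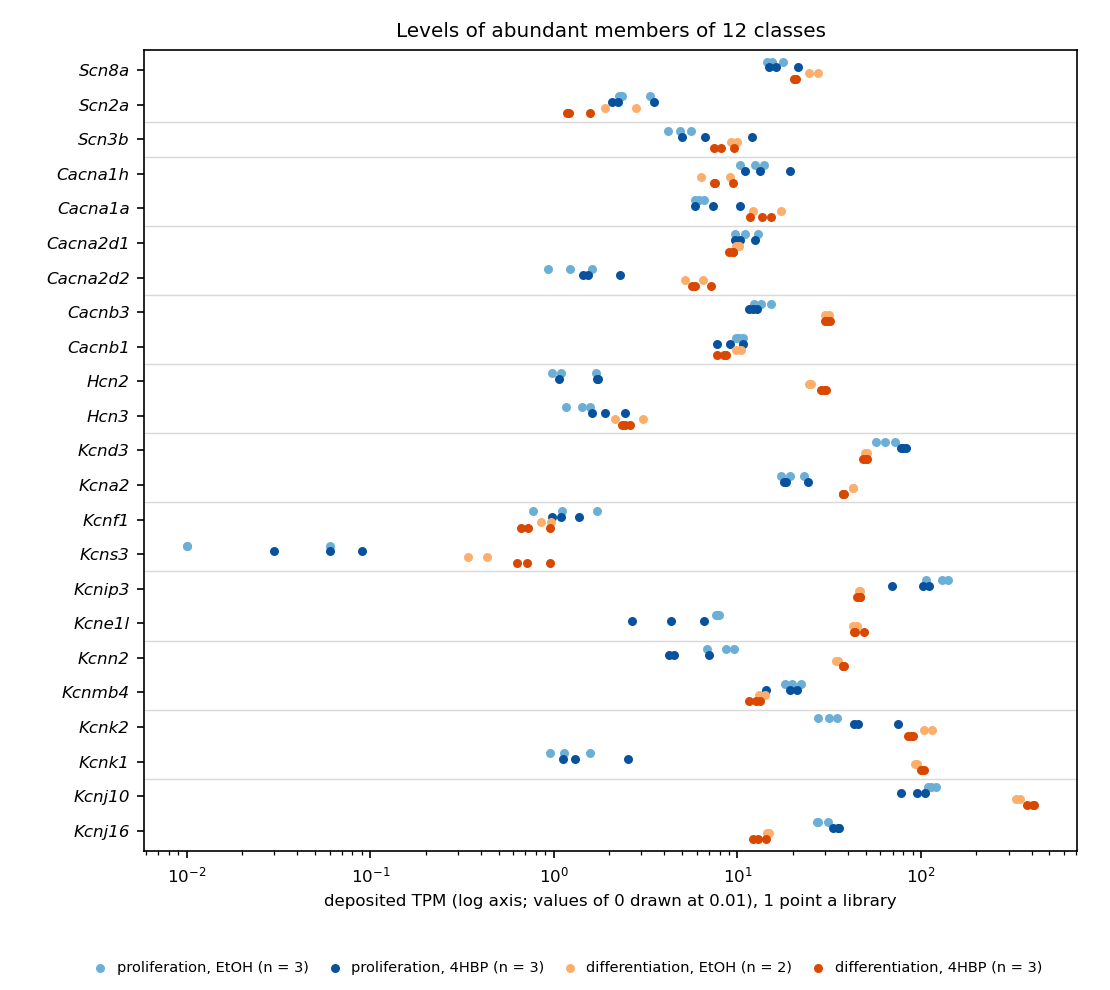
Deposited TPM (x axis, log scale, values of 0 drawn at 0.01) of abundant genes in 12 channel classes (1 or 2 a class), with 1 point per library coloured by medium and treatment. Kcnj10 had the highest level in both groups of differentiation medium, and Kcnk1 and Hcn2 lay near 1 TPM in proliferation medium against 94.1 and 24.9 TPM on average in EtOH cultures in differentiation medium.

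Kcnj10, which encodes the main inward rectifier of astrocytes, had the highest level of all channel genes, with a mean over the 11 libraries of 227 TPM. Kcnip3 followed at 80.9 TPM, Kcnk2 at 67.1 TPM, Kcnd3 at 62.1 TPM and Kcnk1 at 45.6 TPM. The most abundant calcium channel gene was Cacnb3, an auxiliary subunit, at 21.1 TPM. By group, the order at the top changed: Kcnip3 at 126 ± 17.8 TPM and Kcnj10 at 114 ± 5.61 TPM (both n = 3) lay within their spread in EtOH cultures in proliferation medium, whereas in differentiation medium Kcnj10 stood at 339 ± 11.9 TPM and Kcnip3 at 46.1 ± 0.438 TPM (n = 2).

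The first comparison asked how channel expression differed between differentiation and proliferation medium. In EtOH cultures, 89 channel genes had enough counts to be tested, of which 44 were higher in differentiation medium and 19 lower (edgeR quasi-likelihood test, Benjamini-Hochberg adjusted p under 0.05 over all genes). This was 70.8% of the tested channel genes, against 61.4% of all 15920 genes tested. Higher calls made up 30.8% and lower calls 30.6% of all tested genes. The median log2 fold change was 0.60 over the tested channel genes and 0.03 over all genes. After scaling by the trimmed mean of M-values (TMM), 74 of the 89 (83.1%) did not overlap between the media in any library, against 76.3% of all genes.

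In 4HBP cultures the same comparison gave 41 channel genes higher and 22 lower of 89 tested, again 70.8%, against 67.2% of all genes, 33.3% higher and 33.8% lower. The median log2 fold change was 0.45, against 0.01 over all genes, and 64 of 89 (71.9%) did not overlap, against 71.5% of all genes. EtOH and 4HBP cultures share no library. Of the channel genes called higher, 37 were called in both, 84.1% of the EtOH list and 90.2% of the 4HBP list, beside 85.5% and 78.9% over all genes. Of those called lower, 16 were in both, 84.2% and 72.7% of the lists, beside 87.1% and 78.8%. Of the 89 channel genes 0 were called in opposite directions, and 64 of all 15920 genes tested were, so the channel genes were near the share over all genes.

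**Figure D2:**
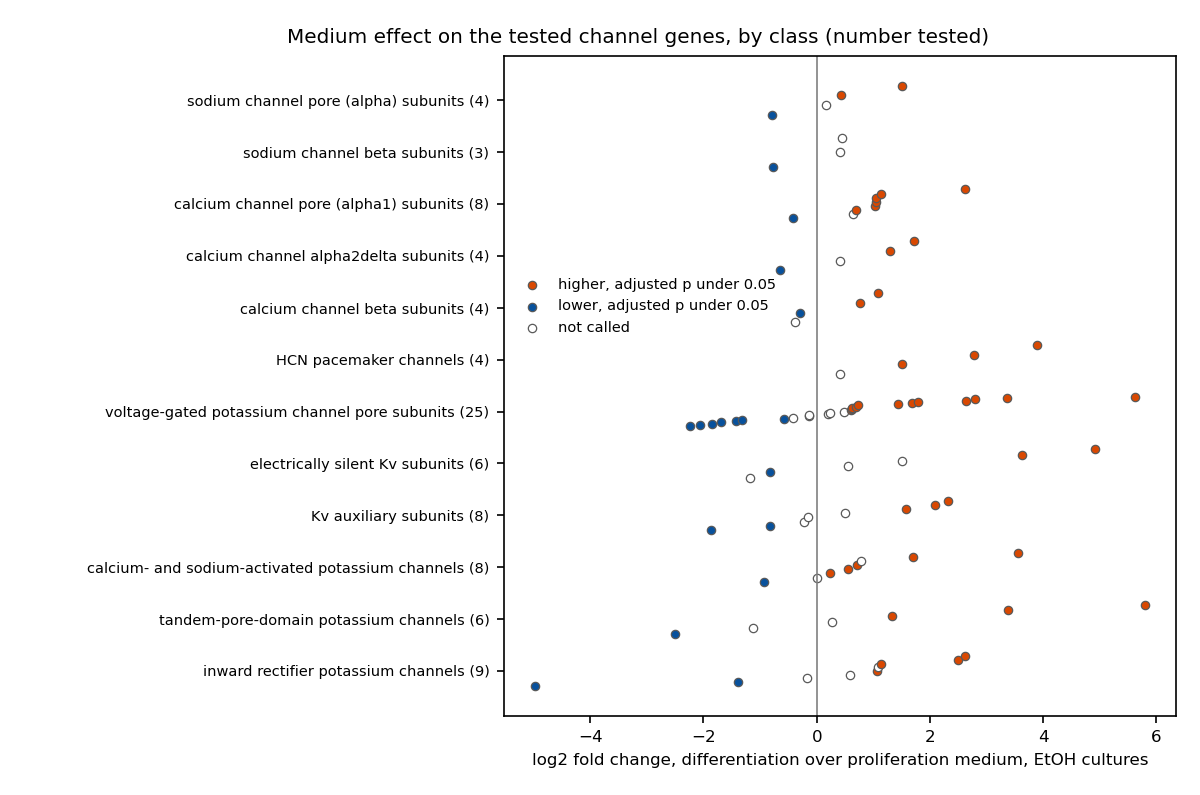
Log2 fold change between media in EtOH cultures (x axis, differentiation over proliferation) for the 89 tested channel genes, with 1 point per gene grouped by class (number tested in brackets) and coloured by call. HCN genes lay to the right of 0, with 3 of 4 called higher, while most other classes held genes called in both directions, from Kcnj14 at -4.98 to Kcnk1 at 5.81.

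Among sodium channel genes, 2 were higher in differentiation medium and 2 lower of 7 tested in EtOH cultures, 57.1% called against 61.4% of all genes. Scn8a and Scn3a were higher, and the calls in the other direction included Scn2a. Scn8a, encoding the alpha subunit of mature axon initial segments and nodes, was at 49.7, 45.1 and 43.0 CPM in proliferation medium and at 66.4 and 64.3 CPM in differentiation medium, without overlap (log2 fold change 0.42, SE 0.16, edgeR adjusted p = 0.0314). In 4HBP cultures its log2 fold change was 0.11 (SE 0.14, edgeR adjusted p = 0.506) and the media overlapped, with 65.1 CPM in the library of proliferation medium that stood apart and 39.9 and 39.8 CPM in the others. Without that library Scn8a was higher in 4HBP cultures as well (0.35, edgeR adjusted p = 0.00126). The EtOH call on Scn8a was lost without either library of differentiation medium or without the second or the third of proliferation medium, at 0.38 to 0.47 over the omissions. Scn3a, an alpha subunit best known from the developing brain, was at 2.44, 2.81 and 1.81 CPM against 7.71 and 6.54 CPM (1.51, SE 0.22, edgeR adjusted p = 7.2e-05). Scn2a, an alpha subunit of unmyelinated and immature axons, was at 7.69, 8.95 and 5.83 CPM against 5.20 and 3.95 CPM (-0.80, SE 0.25, edgeR adjusted p = 0.0128), a call lost without the second EtOH library of differentiation medium (-0.61). Scn3b, encoding a beta subunit, had a log2 fold change of 0.41 (SE 0.24, edgeR adjusted p = 0.155). In 4HBP cultures Scn2a was lower at -1.14 on the log2 scale, and Scn3a was higher by 1.70.

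Calcium channel genes were called higher more often than lower, with 10 against 3 of 16 tested in EtOH cultures and 12 against 4 in 4HBP cultures. The shares over all genes were 30.8% higher and 30.6% lower in EtOH cultures, and 33.3% and 33.8% in 4HBP cultures. Potassium channel genes were also called higher more often, with 29 against 14 and 26 against 16 of 62 tested. Among the alpha1 subunits 6 of 8 were higher in EtOH cultures, 5 of them high-voltage-activated subunits and 1 of the T type. Cacna1a, the P/Q-type subunit of presynaptic terminals, was at 15.7, 16.8 and 20.5 CPM in proliferation medium and at 41.1 and 36.2 CPM in differentiation medium (log2 fold change 1.04, SE 0.11, edgeR adjusted p = 2.9e-06). Both values in differentiation medium were above all 3 in proliferation medium. The N-type subunit gene Cacna1b (1.13), the L-type genes Cacna1c (0.69) and Cacna1d (1.05) and the R-type gene Cacna1e (1.04) were also higher on the log2 scale in counts. In 4HBP cultures Cacna1b was called higher in counts (0.60, edgeR adjusted p = 0.00771) while its mean TPM was 3.49 in proliferation and 2.66 in differentiation medium, so its direction there depended on the scale.

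In EtOH cultures the T-type subunits, which open near rest, went in different directions, and Cacna1g was not called (0.64, edgeR adjusted p = 0.189). Cacna1i was at 0.382, 0.286 and 0.286 CPM against 2.24 and 1.96 CPM (log2 fold change 2.61, SE 0.35, edgeR adjusted p = 2.77e-05). Cacna1h, with more RNA, was at 35.8, 33.2 and 38.2 CPM against 28.6 and 28.5 CPM (-0.41, SE 0.07, edgeR adjusted p = 0.000326). Neither gene overlapped between the media. The auxiliary subunits were divided too. Cacna2d2 was at 4.78, 4.47 and 3.10 CPM against 13.5 and 15.4 CPM (1.72, SE 0.17, edgeR adjusted p = 2.1e-06), and Cacna2d1 was lower at -0.65 (SE 0.11, edgeR adjusted p = 0.000152). Among beta subunits, Cacnb3 was higher (0.77, SE 0.08, edgeR adjusted p = 2.48e-06), Cacnb4 higher (1.07) and Cacnb1 lower (-0.30, SE 0.10, edgeR adjusted p = 0.0238). Cacnb1 lost its call without the first EtOH library of proliferation medium or the second of differentiation medium (-0.21). In 4HBP cultures all 8 alpha1 genes tested were called, with 7 higher, Cacna1g among them, and 1 lower. Cacna1g was there at 0.379, 0.857 and 1.06 CPM in proliferation medium. In differentiation medium with 4HBP it was at 1.97, 2.11 and 2.065 CPM.

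The HCN genes included Hcn2, which had the largest log2 fold change of the sodium, calcium and HCN genes. Hcn2 was at 2.15, 2.48 and 3.77 CPM in proliferation medium and at 43.7 and 44.8 CPM in differentiation medium (log2 fold change 3.89, SE 0.17, edgeR adjusted p = 1.47e-09). In 4HBP cultures it was at 2.41, 3.90 and 3.79 CPM against 51.3, 53.3 and 54.7 CPM (3.94, SE 0.16, edgeR adjusted p = 3.98e-10). The groups were far apart in both treatments. Hcn4 (1.51, edgeR adjusted p = 0.00137) was higher in EtOH cultures at a low level, under 1 TPM on average in every group, and Hcn3 was not called (0.41, edgeR adjusted p = 0.0824).

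Among the pore-forming Kv subunits, 12 were higher and 7 lower of 25 tested in EtOH cultures, 76.0% called against 61.4% of all genes. Kcna1, a Shaker subunit of axons, was at 0.478, 0.428 and 0.478 CPM in proliferation medium and at 23.7 and 25.0 CPM in differentiation medium (log2 fold change 5.62, SE 0.18, edgeR adjusted p = 1.02e-10). With 4HBP it was at 1.09, 0.666 and 0.912 CPM against 28.3, 27.9 and 33.7 CPM (5.02, SE 0.15, edgeR adjusted p = 4.42e-11). The media were separated in both treatments. Its abundant relative Kcna2 was higher by 0.70 (SE 0.10, edgeR adjusted p = 5.89e-05). Kcna6 went the other way, from 125, 132 and 124 CPM to 43.8 and 39.4 CPM (-1.69, SE 0.08, edgeR adjusted p = 1.84e-09). For Kcna6, 39.6% of exon bases lie under a gene on the opposite strand, and whether counting used strand is not given in the sources used here.

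The Shaw subunit gene Kcnc4 was at 1.43, 0.809 and 1.24 CPM against 11.9 and 13.5 CPM in EtOH cultures (log2 fold change 3.36, SE 0.20, edgeR adjusted p = 1.82e-08). With 4HBP it was at 0.568, 0.714 and 0.432 CPM against 15.1, 14.4 and 16.7 CPM (4.70, SE 0.21, edgeR adjusted p = 8.5e-10). Kcnq3, whose product is a subunit of the M-current channel, was higher by 1.79 (SE 0.26), while Kcnq5 was lower at -1.42. Of the 3 A-type Shal genes 2 were lower, and Kcnd1 was not called (0.24, edgeR adjusted p = 0.318). Kcnd3, the most abundant Kv pore gene, was at 228, 201 and 246 CPM against 161 and 159 CPM (-0.57, SE 0.08, edgeR adjusted p = 2.81e-05), and Kcnd2 was lower at -1.31 (SE 0.12, edgeR adjusted p = 8.05e-07). Kcnh4 and Kcnh7, of the ether-a-go-go family, were lower at -2.07 and -1.85, of which Kcnh4 rested on 34 summed counts against 6 (4.09-fold lower per count, 95% exact interval 1.70 to 11.9 for counting error alone).

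Kcna4, an A-type Shaker subunit, was at 0.478, 0.476 and 0.860 CPM against 0.0912 and 0.171 CPM in EtOH cultures (log2 fold change -2.23, SE 0.83, edgeR adjusted p = 0.0332). In TPM its means were 0.177 ± 0.0635 (n = 3) and 0.225 ± 0.233 (n = 2), so the direction depended on the scale, and the call was lost without the third EtOH library of proliferation medium or either of differentiation medium. Kcna5, another Shaker subunit, was lower in 4HBP cultures, at 1.23, 0.857 and 0.576 CPM against 0.358, 0.388 and 0.240 CPM (-1.46, SE 0.46, edgeR adjusted p = 0.0132), and lost its call without the first 4HBP library of proliferation medium or the third of differentiation medium. In EtOH cultures Kcna5 overlapped between the media (-0.14, SE 0.57, edgeR adjusted p = 0.841).

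Electrically silent Kv subunits form channels only together with Kcnb subunits. Kcnb2 was higher in differentiation medium in EtOH cultures (log2 fold change 1.43). Of 6 silent subunits tested there 2 were higher and 1 lower, 50.0% called against 61.4% of all genes. Kcng4 had 1 count over the 3 EtOH libraries in proliferation medium and 31 over the pair in differentiation medium, a ratio of 43.0 after scaling by depth (95% exact interval 7.16 to 1750, counting error alone). With 4HBP it had 0 counts against 69, at least 7.30-fold higher when 3 counts are set as the limit per library. Kcns3 had 2 counts against 22 in EtOH cultures, a ratio of 15.2 (3.75 to 134), and its 4HBP libraries gave 10.9 (4.77 to 30.8). Both genes stayed under 1 TPM on average in every group. Kcnf1 was lower, from 3.77, 2.67 and 5.97 CPM to 2.33 and 2.60 CPM (-0.83, SE 0.32, edgeR adjusted p = 0.0355), a call lost without the third EtOH library of proliferation medium (-0.47) or either of differentiation medium.

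Among Kv auxiliary subunits 3 were higher and 2 lower of 8 tested in EtOH cultures, 62.5% called against 61.4% of all genes. Kcnip3, which encodes a Kv4-binding calcium sensor also known as the transcriptional repressor DREAM, was at 244, 203 and 270 CPM in proliferation medium and at 70.2 and 68.5 CPM in differentiation medium (log2 fold change -1.87, SE 0.19, edgeR adjusted p = 2.62e-06). In the same family of Kv4 partners, Kcnip2 was higher (1.58) and Kcnip1 was not called (0.49, edgeR adjusted p = 0.146). Kcne1l, a single-span subunit, was at 7.93, 7.76 and 7.88 CPM against 36.5 and 34.4 CPM (2.09, SE 0.20, edgeR adjusted p = 1.8e-06). Kcnab1, a cytoplasmic beta subunit of Shaker channels, was higher by 2.31 on the log2 scale in EtOH cultures. Its level was low, at 0.287, 0.0476 and 0.191 CPM against 0.775 and 1.11 CPM. Kcnab3 was lower at -0.83 in EtOH cultures, at 2.63, 2.09 and 2.82 CPM against 1.73 and 1.28 CPM. In 4HBP cultures Kcnab3 was at 2.08, 2.09 and 2.06 CPM against 1.97, 2.24 and 2.26 CPM, which overlapped.

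Calcium- and sodium-activated potassium channels were higher in 5 of 8 tested and lower in 1 in EtOH cultures, 75.0% called against 61.4% of all genes. Kcnt1, a sodium-activated channel, was at 1.43, 2.67 and 2.01 CPM in proliferation medium and at 26.6 and 24.5 CPM in differentiation medium (log2 fold change 3.56, SE 0.21, edgeR adjusted p = 1.94e-08). The 4HBP libraries held 0.615, 0.428 and 1.10 CPM against 17.2, 17.1 and 15.3 CPM (4.48, SE 0.24, edgeR adjusted p = 4.27e-09). Its paralogue Kcnt2 was lower in 4HBP cultures (-2.55, SE 0.46, edgeR adjusted p = 0.000294) and was not called in EtOH cultures (0.78, SE 0.68, edgeR adjusted p = 0.335). Without the library that stood apart, Kcnt2 was lower at -1.97 in 4HBP cultures. The small-conductance genes Kcnn1, Kcnn2 and Kcnn3 were each higher in EtOH cultures, by 0.71, 1.69 and 0.23. Kcnn2 was at 13.3, 15.2 and 10.7 CPM against 44.7 and 45.3 CPM (SE 0.14, edgeR adjusted p = 3.41e-07). Kcnma1, the large-conductance (BK) pore, was higher by 0.55 (SE 0.21, edgeR adjusted p = 0.0351), and its neuronal partner Kcnmb4 was lower at -0.93 (SE 0.14, edgeR adjusted p = 9.34e-05), with 31.5% of Kcnmb4 exon bases under an opposite-strand gene.

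The K2P leak channels held the largest rise of any channel gene in EtOH cultures. Kcnk1, a weak leak channel of astrocytes, was at 1.43, 1.52 and 2.44 CPM in proliferation medium and at 107 CPM in both libraries of differentiation medium (log2 fold change 5.81, SE 0.18, edgeR adjusted p = 8.37e-11). In 4HBP cultures it was at 1.75, 2.00 and 3.55 CPM against 115, 114 and 118 CPM (5.53, SE 0.16, edgeR adjusted p = 3.6e-11). No library of one medium came near the other. Kcnk2, a leak channel gated by stretch and lipids, was at 63.0, 71.9 and 57.9 CPM against 181 and 164 CPM (1.34, SE 0.17, edgeR adjusted p = 1.95e-05) in EtOH cultures. In 4HBP cultures Kcnk2 was at 83.8, 91.1 and 151 CPM against 144, 144 and 141 CPM, which overlapped (0.36, SE 0.15, edgeR adjusted p = 0.0519). The value of 151 CPM came from the library that stood apart, and without it Kcnk2 was higher by 0.64 (edgeR adjusted p = 6.14e-06). Exon bases under an opposite-strand gene made up 8.01% for Kcnk1 and 12.2% for Kcnk2. Kcnk13 was higher at low level (3.38, SE 0.41, edgeR adjusted p = 1.15e-05). The acid-sensitive Kcnk3 was lower, from 2.34, 2.28 and 3.58 CPM to 0.593 and 0.427 CPM (-2.50, SE 0.51, edgeR adjusted p = 0.000885).

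Among Kir channels 4 were higher and 2 lower of 9 tested in EtOH cultures, 66.7% called against 61.4% of all genes. Kcnj10 was at 435, 474 and 432 CPM in proliferation medium and at 1022 and 1069 CPM in differentiation medium (log2 fold change 1.14, SE 0.11, edgeR adjusted p = 1.47e-06). The 4HBP libraries held 419, 306 and 363 CPM against 1169, 1265 and 1294 CPM (1.73, SE 0.10, edgeR adjusted p = 1.14e-08). Kcnj16, whose product assembles with that of Kcnj10, was at 71.0, 71.3 and 82.1 CPM against 30.6 and 29.7 CPM in EtOH cultures (-1.40, SE 0.10, edgeR adjusted p = 1.18e-07). In 4HBP cultures it was at 93.5, 94.0 and 84.4 CPM against 25.2, 29.5 and 27.1 CPM (-1.77, SE 0.09, edgeR adjusted p = 2.59e-09). These partners thus moved in opposite directions with the medium. In TPM, Kcnj10 went from 114 ± 5.61 to 339 ± 11.9 and Kcnj16 from 28.7 ± 2.21 to 14.6 ± 0.247 in EtOH cultures. The strong rectifier genes Kcnj4 (2.63, SE 0.40, edgeR adjusted p = 8.11e-05) and Kcnj12 (2.49) and the G-protein-gated Kcnj3 (1.06) were higher. Kcnj14 had 52 summed counts against 1, 37.5-fold lower per count (95% exact interval 6.44 to 1510, counting error alone).

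Some of these genes are chromosomal neighbours, with no other protein-coding gene between them in GENCODE release 21 on GRCm38. Kcna1 (chr6:126640397-126646384, minus strand) and Kcna6 (chr6:126708329-126740674, minus strand) lie 61.9 kb apart, and Kcna1 was higher while Kcna6 was lower. Scn3a (chr2:65457118-65567627, minus strand) and Scn2a (chr2:65620771-65767447, plus strand) lie 53.1 kb apart and also moved in opposite directions. Kcna3 and Kcna2, 63.1 kb apart, were both higher, by 0.63 and 0.70. Kcnj16 and Kcnj2 lie 38.2 kb apart. Kcnj16 was lower in both treatments, and Kcnj2 was higher in 4HBP cultures (1.10, edgeR adjusted p = 0.0107) and was not called in EtOH cultures (0.58, edgeR adjusted p = 0.182).

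**Figure D3:**
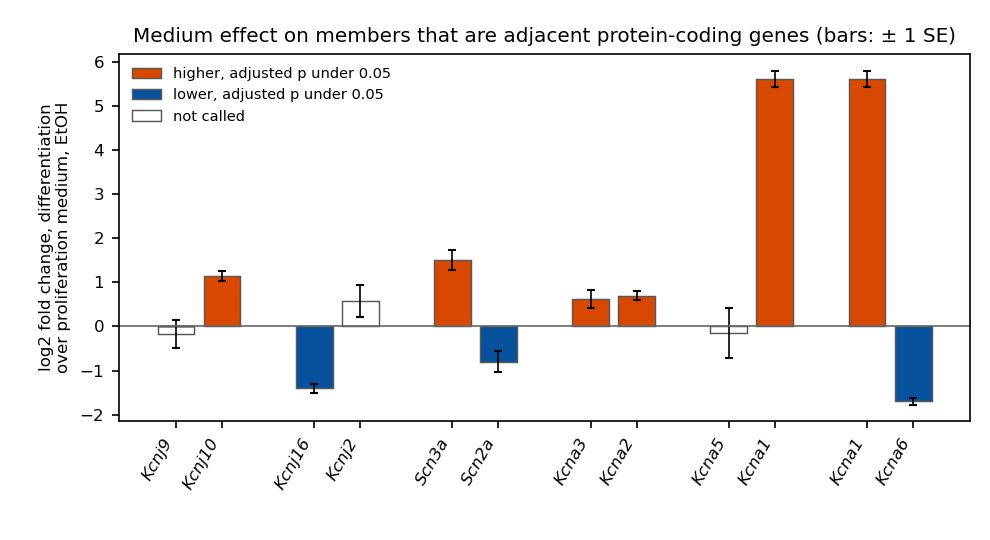
Log2 fold change between media in EtOH cultures (y axis, differentiation over proliferation, bars ± 1 SE of the edgeR fit) for 6 pairs of channel genes that are adjacent protein-coding genes. Kcna1 at 5.62 stands beside Kcna6 at -1.69, and Scn3a at 1.51 beside Scn2a at -0.80.

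Promoter windows describe these genes outside their expression. The RefSeq table for GRCm38.p6 gives 300 bases from 250 before to 50 after the start of a gene, and 95 of the 130 channel genes matched it by symbol. The median GC content was 59.7% and the median number of CpG dinucleotides 10, against 52.7% and 7 over all 27025 windows. Searched on both strands, the GC box GGGCGG was in 51.6% of channel windows and 35.9% of all windows, and the E-box CAGCTG in 25.3% and 16.1%. The TATA box TATAAA was in 4.2% and 14.2%, the CCAAT box CCAAT in 28.4% and 38.0%, the SOX motif AACAAT in 6.3% and 10.9%, and the CRE half-site TGACG in 24.2% and 20.9%. No motif contains another, and a match is a description of letters only. The GC box was in 63.6% of the 33 windows of genes higher in differentiation medium, 50.0% of the 14 lower and 56.2% of the 16 not called. It was in 37.5% of the 32 windows of channel genes with too few counts to be tested. Their median GC content was 54.5% and their median number of CpG 7.5, near the values over all windows. The set of all windows was not restricted to expressed or to protein-coding genes.

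The windows of 4 genes are shown because their values carry the comparisons. Kcnk1, Hcn2 and Kcnj10 were higher in differentiation medium and Kcna6 was lower. Each is written 5′ to 3′ on the strand of the gene, with matches to the motifs above in capitals. Kcnk1 (chr8:125994852-125995151, plus strand) has 49.0% GC and a SOX match, Hcn2 (chr10:79716384-79716683, plus strand) has 72.3% GC and 3 GC boxes, Kcnj10 (chr1:172340960-172341259, plus strand) has 63.7% GC with 3 GC boxes and 2 CCAAT boxes, and Kcna6 (chr6:126740625-126740924, minus strand) has 58.3% GC and a CRE half-site.
Kcnk1: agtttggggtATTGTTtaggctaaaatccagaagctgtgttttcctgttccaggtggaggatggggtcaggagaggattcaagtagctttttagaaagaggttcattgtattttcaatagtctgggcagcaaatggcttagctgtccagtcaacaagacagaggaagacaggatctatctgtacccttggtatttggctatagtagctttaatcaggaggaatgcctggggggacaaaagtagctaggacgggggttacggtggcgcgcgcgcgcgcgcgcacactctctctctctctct
Hcn2: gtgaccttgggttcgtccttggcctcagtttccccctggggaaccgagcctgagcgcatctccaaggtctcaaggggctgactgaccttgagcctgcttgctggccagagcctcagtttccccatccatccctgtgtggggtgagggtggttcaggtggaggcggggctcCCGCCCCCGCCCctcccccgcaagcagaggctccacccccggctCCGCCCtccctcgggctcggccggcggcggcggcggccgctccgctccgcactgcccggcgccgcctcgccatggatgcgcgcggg
Kcnj10: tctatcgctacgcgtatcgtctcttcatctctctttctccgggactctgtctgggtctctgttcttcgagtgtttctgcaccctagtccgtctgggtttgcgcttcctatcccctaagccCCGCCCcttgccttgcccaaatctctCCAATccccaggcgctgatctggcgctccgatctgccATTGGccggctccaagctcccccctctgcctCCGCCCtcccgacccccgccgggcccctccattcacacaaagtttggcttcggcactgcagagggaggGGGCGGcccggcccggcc
Kcna6: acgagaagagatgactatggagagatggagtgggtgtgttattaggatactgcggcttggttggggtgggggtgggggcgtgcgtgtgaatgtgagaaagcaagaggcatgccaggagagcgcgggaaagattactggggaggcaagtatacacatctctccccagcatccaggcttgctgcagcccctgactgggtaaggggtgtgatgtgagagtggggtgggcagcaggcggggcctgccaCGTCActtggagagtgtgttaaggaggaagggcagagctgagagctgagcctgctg

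A list of 40 partner genes, which are not channel genes by the rule, was read beside the channel genes. It was drawn up for the same complexes and their membrane sites. The list was not limited to proteins that bind these channels, and it included the sodium leak channel gene Nalcn and its partners. In EtOH cultures 15 of 32 tested were higher in differentiation medium and 8 lower, with a median log2 fold change of 0.40, and in 4HBP cultures 17 were higher and 8 lower (0.49). Over all genes tested, 30.8% were higher and 30.6% lower in EtOH cultures, and 33.3% and 33.8% in 4HBP cultures. Among the lower partners were Cacng5 (-3.50) and Stac2 (-2.25), which encode calcium channel gamma-family and adaptor proteins, and Fgf14 (-0.71), a sodium channel partner. Nalcn, the sodium leak channel, and its partners Unc80 and Fam155a were higher by 1.34, 1.63 and 2.60, and its partner Unc79 was not called (0.06, edgeR adjusted p = 0.678). Dtna, of the dystrophin complex that anchors Kcnj10 at astrocyte endfeet, was higher by 1.42. The Kv4 partners Dpp6 and Dpp10 were higher, by 1.16 and 0.67, while the Kv4 pore genes Kcnd2 and Kcnd3 were lower.

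The second question was what 4HBP changed in proliferation medium. Of 78 channel genes tested, 2 were higher with 4HBP and 5 lower, 8.97% against 7.43% of all 14449 genes tested (3.74% higher and 3.69% lower over all genes). Kcnt2 and Kcnk2 were higher, and Kcna6, Kcnn3, Kcnt1, Kcnj14 and Kcnd2 were lower, all of them potassium channel genes, and Kcna6 alone was called by limma on log2(CPM + 1). The median log2 fold change was 0.00 over channel genes and over all genes, and 27 of 78 (34.6%) did not overlap after TMM scaling, against 31.3% of all genes. None of the 7 sodium, 15 calcium or 3 HCN genes tested was called by edgeR, where 7.43% of all genes were. At an unadjusted p under 0.05 were 1, 2 and 2 of them, and 23 of the 53 potassium genes tested. DESeq2, limma and limma-voom called 0 of the sodium, calcium and HCN genes. So few genes cannot show whether these classes were called less often than all genes.

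Kcnt2 was at 0.382, 0.238 and 0.382 CPM in EtOH cultures and at 1.85, 3.14 and 6.53 CPM in 4HBP cultures, without overlap (log2 fold change 3.45, SE 0.51, edgeR adjusted p = 0.00879). The highest value came from the library that stood apart, and without that library the log2 fold change was 2.87 (edgeR adjusted p = 0.00416). Kcnk2 was at 63.0, 71.9 and 57.9 CPM against 83.8, 91.1 and 151 CPM (0.72, SE 0.19, edgeR adjusted p = 0.0495). Without that library its log2 fold change was 0.44 (edgeR adjusted p = 0.0198). The call on Kcnk2 was lost without the second 4HBP library or without any 1 of the 3 EtOH libraries, and that on Kcnt2 without the first or the second EtOH library.

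Kcna6 was at 125, 132 and 124 CPM in EtOH cultures and at 85.9, 77.5 and 80.9 CPM in 4HBP cultures (log2 fold change -0.67, SE 0.07, edgeR adjusted p = 0.00398). It was called without each of the 6 libraries in turn. Kcnn3, a small-conductance calcium-activated channel, was at 48.2, 41.5 and 38.6 CPM against 25.7 to 31.5 CPM in the 3 libraries with 4HBP (-0.64, SE 0.10, edgeR adjusted p = 0.0102), a call lost without the first or the second EtOH library. Kcnt1 was at 1.43, 2.67 and 2.01 CPM against 0.615, 0.428 and 1.10 CPM (-1.54, SE 0.39, edgeR adjusted p = 0.0462). Without the library that stood apart its log2 fold change was -1.96 (edgeR adjusted p = 0.0185). The A-type gene Kcnd2 was at 48.0, 47.0 and 36.2 CPM against 32.4, 32.6 and 29.7 CPM (-0.50, SE 0.12, edgeR adjusted p = 0.0338). Neither gene overlapped between treatments, yet Kcnt1 lost its call in 5 of the 6 omissions and Kcnd2 in 4. Kcnj14 was at 0.669, 0.904 and 0.907 CPM against 0.142, 0.333 and 0.288 CPM (-1.71, SE 0.43, edgeR adjusted p = 0.0446), and lost its call in all 6.

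Other values moved with the treatment in these libraries. Astrocyte markers summed to 3121 to 3708 TPM with 4HBP against 4117 to 4786 TPM with EtOH, with 6 of 10 called lower, and none of the 10 was at 0 in either group. Cell cycle markers summed to 272 to 453 TPM against 482 to 512 TPM, with 0 of 10 called. The lowest of these sums, 272 TPM, came from the library that stood apart. Their part in the channel results was not tested.

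The third question was what 4HBP changed in differentiation medium. Of 83 channel genes tested, 3 were higher and 5 lower, 9.64% against 2.55% of all 15484 genes tested (1.26% higher and 1.29% lower). All 8 calls depended on the test, since limma on log2(CPM + 1) called 0 of them at its adjusted p and the edgeR fit to all 11 libraries called 0, while limma-voom called all 8. Hcn2, Kcnj10 and Kcnn3 were higher, and Kcnt1, Kcnq3, Scn8a, Kcnk2 and Kcna2 lower. The median log2 fold change was -0.01 over channel genes and 0.00 over all genes, and 37 of 83 (44.6%) did not overlap after TMM scaling, against 32.9% of all genes. The called changes were at most 0.62 in size on the log2 scale, and the spread between these 5 libraries was small (biological coefficient of variation 0.0368, against 0.1173 for the 6 libraries of proliferation medium). None of 16 calcium channel genes was called by edgeR, with 3 at an unadjusted p under 0.05 and 0 called by DESeq2, limma and limma-voom. With 2.55% of all genes called by edgeR, 0 of 16 does not set the calcium channel genes apart.

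Kcnt1 was at 26.6 and 24.5 CPM in EtOH cultures and at 17.2, 17.1 and 15.3 CPM in 4HBP cultures (log2 fold change -0.62, SE 0.08, edgeR adjusted p = 0.000399). It was called without each of the 5 libraries in turn in the fit to this medium, and it was also lower with 4HBP in proliferation medium. Kcnj10 was at 1022 and 1069 CPM against 1169, 1265 and 1294 CPM (0.26, SE 0.04, edgeR adjusted p = 0.00288). Kcnk2 was at 181 and 164 CPM against 144, 144 and 141 CPM (-0.26, SE 0.04, edgeR adjusted p = 0.00324). All 3 genes were free of overlap between treatments, and the calls on Kcnj10 and Kcnk2 were lost without the first EtOH library.

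Hcn2 was at 43.7 and 44.8 CPM in EtOH cultures and at 51.3, 53.3 and 54.7 CPM in 4HBP cultures (log2 fold change 0.27, SE 0.05, edgeR adjusted p = 0.0115). Kcnn3 was at 50.7 and 56.0 CPM against 60.2, 62.8 and 63.8 CPM (0.23, SE 0.05, edgeR adjusted p = 0.0355). Lower values were seen for Kcnq3, the M-current subunit gene, at 24.7 and 22.5 CPM against 17.9, 19.5 and 18.3 CPM (-0.34, SE 0.07, edgeR adjusted p = 0.0243). The axonal genes Scn8a and Kcna2 were lower at -0.28 (SE 0.06, edgeR adjusted p = 0.0207) and -0.16 (SE 0.04, edgeR adjusted p = 0.0215), and Scn8a was at 66.4 and 64.3 CPM against 53.6, 58.0 and 48.4 CPM. With only 2 EtOH libraries in this medium, each of these 5 calls was lost in 2 to 4 of the 5 omissions of a library.

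**Figure D4:**
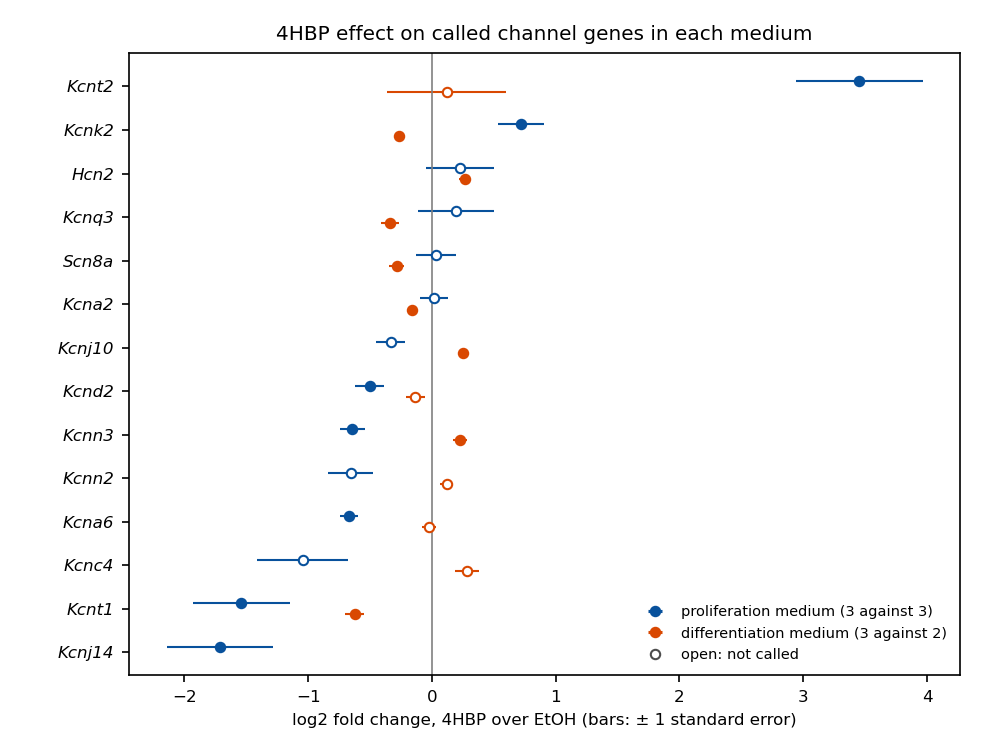
Log2 fold change of 4HBP over EtOH (x axis, bars ± 1 SE) in proliferation and differentiation medium for the 14 channel genes called in either medium or in the test of the difference, with filled points for calls. Kcnn3 and Kcnk2 were called in both media on opposite sides of 0, Kcnt1 was lower in both, and Kcnj14 was not tested in differentiation medium.

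The 4HBP effects were then compared between media by an interaction term fitted to all 11 libraries, given as the log2 fold change in proliferation medium minus that in differentiation medium. Of 89 channel genes tested, 2 were higher in this difference and 5 lower, 7.87% against 4.49% of all genes (2.01% and 2.48%), and all 7 were potassium channel genes, of which limma on log2(CPM + 1) called Kcna6 and Kcnn3. Kcnn3 had a difference of -0.88 (SE 0.13, edgeR adjusted p = 0.00356), being lower with 4HBP in proliferation medium and higher in differentiation medium. Kcnk2 had the opposite pattern, 0.97 (SE 0.23, edgeR adjusted p = 0.034). Kcna6 differed by -0.65 (SE 0.10, edgeR adjusted p = 0.00433), with 43.8 and 39.4 CPM against 40.2, 40.9 and 41.3 CPM in differentiation medium, where the treatments overlapped.

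Kcnj10 differed by -0.60 (SE 0.15, edgeR adjusted p = 0.0421). In proliferation medium its 419, 306 and 363 CPM with 4HBP were below the 435, 474 and 432 CPM with EtOH without a call there (-0.33, SE 0.12, edgeR adjusted p = 0.119). Kcnn2 (-0.78, SE 0.19, edgeR adjusted p = 0.0405) and Kcnc4 (-1.34, SE 0.32, edgeR adjusted p = 0.0332) were called in neither medium alone but differed between them. Kcnt2 differed by 3.33 (SE 0.83, edgeR adjusted p = 0.041), with its rise seen in proliferation medium and 0.274 and 0.939 CPM against 0.626, 0.604 and 0.768 CPM in differentiation medium. For Kcnt1, lower in both media, the difference was -0.92 (SE 0.35, edgeR adjusted p = 0.163). None of the 7 sodium, 16 calcium or 4 HCN genes passed this test in edgeR, where 4.49% of all genes did. At an unadjusted p under 0.05 were 1, 2 and 1 of them, and 18 of the 62 potassium genes tested. DESeq2, limma and limma-voom called 0 of the sodium, calcium and HCN genes. So few genes cannot show whether these classes were called less often than all genes. Of the 7 calls, Kcnc4 was lost without the third 4HBP library of proliferation medium (-1.15, edgeR adjusted p = 0.0543). Without that library Kcnk2 differed by 0.70, Kcnt2 by 2.75 and Kcnn2 by -0.96, each still called. Over the 11 omissions Kcnn3 kept its call in each, Kcna6 lost it without the second EtOH library of differentiation medium, and Kcnk2, Kcnt2, Kcnj10, Kcnc4 and Kcnn2 lost it in 7 to 9, among them every omission of a differentiation-medium library.

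**Figure D5:**
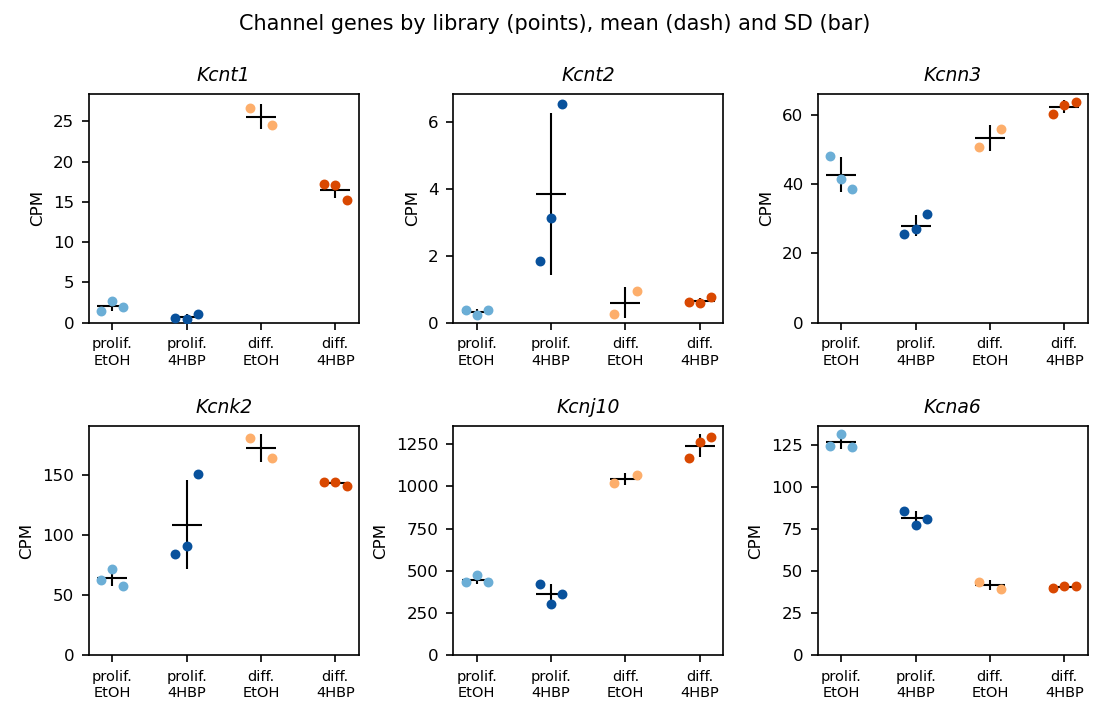
CPM (y axes, linear from 0) of 6 potassium channel genes in each of the 11 libraries, as points, with the group mean as a dash and the SD as a bar. Kcnn3 was lower with 4HBP in proliferation medium and higher in differentiation medium, Kcnk2 showed the reverse, and Kcnt1 was lower with 4HBP in both media.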

How the data were processed

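The data were 11 stranded poly(A) RNA libraries. The authors checked reads with FastQC 0.11.5, trimmed them with cutadapt, and estimated expected counts and TPM per gene with RSEM 1.3.0 and Bowtie2 2.2.9 on mm10 with GENCODE release 17. The expected counts and TPM were used as deposited; the deposited FPKM were not used. Whether counting used strand is not given in the sources used here. Versions of these tools are from the submitters' processing notes.

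Gene identifiers were matched to GENCODE release 21 on the same build (99.823% matched). Expected counts were rounded, genes filtered with filterByExpr, scaled by TMM and tested with edgeR 4.0.16 (quasi-likelihood, R 4.3.3), with Benjamini-Hochberg adjustment over all genes and a threshold of 0.05. The study used limma on log2(CPM + 1), called at an unadjusted p under 0.05 with an absolute log2 fold change over 0.58. Here limma on that scale, called at the adjusted p, and the fold threshold on edgeR calls were separate alternatives. Medium comparisons and the interaction used all 11 libraries, and 4HBP comparisons the libraries of 1 medium. CPM were expected counts over the library total, without TMM. Depth was 20822921 to 23438463 counts a library, and 2 or 3 libraries a group limit the precision. Intervals and the limit of 3 counts cover counting error alone.

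Genes were named as the 2 most abundant of each class, the 5 largest changes in each direction whose libraries did not overlap for each medium comparison, and every call in the 4HBP comparisons and the interaction, and other channel genes were added after their values were seen. The channel genes, classes, partner and marker lists were chosen with earlier results of these data known. Alternatives were DESeq2 1.42.0, limma 3.58.1 on log2 CPM, limma-voom with group weights, no count filter, other samples in the fit, a fold threshold, a replicate block, and omission of each library. No library pair was a duplicate. Values of a few genes of the lists are not reported here by name, and those genes stay in the counts.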

Additional observations from a re-analysis of the deposited data

Results flagged for a closer look

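For 7 potassium channel genes the effect of 4HBP differed between the media by the interaction test over 11 libraries (edgeR quasi-likelihood, adjusted p under 0.05), given as the log2 fold change in proliferation medium minus that in differentiation medium. The difference was -0.88 for Kcnn3, -0.65 for Kcna6, -0.60 for Kcnj10, -0.78 for Kcnn2 and -1.34 for Kcnc4, and it was 0.97 for Kcnk2 and 3.33 for Kcnt2. Kcnn3 was called without each of the 11 libraries in turn, and Kcna6 without each but the second EtOH library of differentiation medium, while the other 5 genes lost their calls in 7 to 9 of the 11 omissions. In the same test 5 of 10 astrocyte markers (none at 0 in any library) were called, each lower, where 2.48% of all genes were called lower. Kcnk2 and Kcnt2 went the other way. Neural stem cell markers had 2 of 10 called, both lower, and cell cycle markers 0 of 10, with a median of -0.70. The astrocyte sum was 3121 to 3708 TPM with 4HBP against 4117 to 4786 TPM with EtOH in proliferation medium, and 7724 to 8064 against 7881 to 8031 TPM in differentiation medium. The part of these markers in the 7 differences was not tested.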

How the results depend on the processing

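Counts of channel genes called higher and lower between media stayed within 1.5 times those reported under every alternative run, with omission of 1 library giving 37 to 46 higher and 14 to 20 lower in EtOH cultures and 38 to 48 and 18 to 22 in 4HBP cultures. The 4HBP counts did not. In proliferation medium, limma on log2(CPM + 1) called 0 higher and 1 lower (Kcna6), no count filter 3 and 8, the fit to all 11 libraries 6 and 11, and omission of 1 library 0 to 4 and 1 to 6, with 0 and 1 without the first or the second EtOH library. In differentiation medium, limma called 0 and 0, the fit to all 11 libraries 0 and 0, the fold threshold 0 and 1, and omissions 0 to 3 and 1 to 4, with 0 and 1 without the first EtOH library. For the difference between media, limma called 0 higher and 4 lower, no filter 4 and 8, voom with group weights 1 and 6, and omissions 0 to 4 and 1 to 6. The cause was not tested. Same-numbered libraries did not deviate together, with correlations from -0.0612 to 0.018, so the numbers were not read as pairs. With a replicate block, 4HBP calls numbered 1 up and 3 down in proliferation medium, 3 and 6 in differentiation medium and 2 and 2 for the difference, and medium calls 43 and 17 in EtOH cultures and 42 and 22 in 4HBP cultures. The summed level of electrically silent Kv subunits rose between media in EtOH cultures in TPM but had a log2 ratio of -0.01 in CPM. Of 1794 values for named genes, 151 lost and 28 gained a call in the same direction. A further 7, called in neither fit, changed sign by at least the SE. The other 1608 kept their call or lack of one, and uncalled values whose sign changed by less than the SE were counted among them. No value called in either fit changed sign. Depth limits genes of few counts, such as Kcng4, Kcns3 and Kcnj14, and 2 EtOH libraries limit differentiation medium.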
